A study of Mus musculus with 2 samples.

Results

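The 4 genes that encode the subunits of AMPA receptors, Gria1, Gria2, Gria3 and Gria4, were described in a map of open chromatin of the mouse frontal cortex. They were chosen by symbol among the 21938 protein-coding genes of the GENCODE annotation, and all 4 were found. Their data are the peaks within 1 kb of any annotated transcription start site (TSS), called promoter peaks, and all peaks and footprints in the gene body and 10 kb on either side. The map was made by DNase-seq, in which DNase I cuts DNA that nucleosomes do not shield and the cut ends are sequenced. A footprint is a short stretch inside open chromatin that is cut less than its surroundings. The tissue came from female mice of the strain B6CASTF1/J, aged 25 days, an F1 cross between CAST/EiJ, a wild-derived strain, and C57BL/6J. Both libraries, replicate 1 and replicate 2, belong to a single untreated group. The labels call them separate biological replicates but carry 1 donor identifier, so their spread need not be a spread between animals. All coordinates are on mm10.

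AMPA receptors are glutamate-gated ion channels built from 4 subunits, and they carry most of the fast excitatory transmission in the brain. The subunits differ in how they open and in how they are moved to synapses, and the subunit encoded by Gria2, once its transcript is edited by adenosine deamination, keeps calcium out of the channel. In the cortex, Gria1 and Gria2 are known as the main subunits of pyramidal neurons, Gria4 is known in inhibitory neurons, and Gria3 lies on the X chromosome. Open chromatin at a promoter or in an intron marks DNA that regulatory proteins can reach, and says nothing by itself of transcription.

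The sequences on which the account turns are printed first, 5′ to 3′ on the coding strand of each gene, with capitals for bases inside a footprint of either library. They were read from the GRCm38.p6 genome, the sequence of mm10. The Gria2 stretches are shown because a rare motif and footprints seen in both libraries lie there. The promoter stretch is chr3:80802836-80803060 and lies upstream of the annotated 5′ end. The start footprint is chr3:80802809-80802835, the first bases of the gene. The intronic stretch is chr3:80801172-80801295, in intron 2 of the transcript Gria2-201 and in an exon of the retained-intron transcript Gria2-205.
Gria2 promoter: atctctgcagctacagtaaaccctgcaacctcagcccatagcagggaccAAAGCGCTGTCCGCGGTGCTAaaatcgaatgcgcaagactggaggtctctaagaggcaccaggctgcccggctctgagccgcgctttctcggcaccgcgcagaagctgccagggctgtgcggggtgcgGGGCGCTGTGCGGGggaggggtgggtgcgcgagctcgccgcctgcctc
Gria2 start footprint: gagTCGCGCACGCGCGCCCGGGACtgc
Gria2 intron 2: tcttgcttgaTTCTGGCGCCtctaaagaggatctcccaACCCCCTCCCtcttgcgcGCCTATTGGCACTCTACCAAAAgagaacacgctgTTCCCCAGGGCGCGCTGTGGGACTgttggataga

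The Gria4 promoter stretch, chr9:4796235-4796340, is shown for comparison, as it also lies directly upstream of an annotated 5′ end.
Gria4 promoter: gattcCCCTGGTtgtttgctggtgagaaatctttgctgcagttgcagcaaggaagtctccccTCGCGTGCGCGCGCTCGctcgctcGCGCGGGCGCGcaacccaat

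The Gria1 stretches lie in introns of the transcript Gria1-201. They show its strongest open region, and footprints elsewhere that matched a motif spelled after footprint sequences had been seen. They are chr11:57038881-57039120 and chr11:57112590-57112629 in intron 2, and chr11:57310942-57310997 and chr11:57313946-57313994 in intron 14. The names of factors refer to letters only.
Gria1 intronic region: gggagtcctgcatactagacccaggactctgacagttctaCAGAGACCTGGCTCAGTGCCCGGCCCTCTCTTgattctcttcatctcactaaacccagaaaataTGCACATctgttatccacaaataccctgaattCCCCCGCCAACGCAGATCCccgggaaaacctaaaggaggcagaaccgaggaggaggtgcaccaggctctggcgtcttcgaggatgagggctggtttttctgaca
Gria1 NFI-like footprint: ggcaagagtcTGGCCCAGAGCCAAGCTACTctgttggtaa
Gria1 CTCF-like footprint: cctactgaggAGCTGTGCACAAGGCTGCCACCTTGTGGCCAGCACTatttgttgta
Gria1 RFX-like footprint: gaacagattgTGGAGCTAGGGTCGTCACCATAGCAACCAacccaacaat

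The libraries held 85603 peaks in replicate 1 and 87847 in replicate 2, and 214072 and 189951 footprints. The value of a peak is the signal that the authors normalized for read depth, on a scale that is not stated. The median peak had a value of 0.627 in replicate 1 and 0.679 in replicate 2. Values came in whole steps of 0.00565 and 0.00571. Intervals below treat 1 step as 1 read, an assumption, and cover counting error only. Peaks of both libraries that overlapped by at least 1 bp were merged into 109538 regions, 58659 of them called in both. Among the tissue markers, 8 of 8 cortical excitatory neuron genes and 3 of 6 inhibitory neuron genes carried a promoter peak in each library, against 0 of 6 hindbrain and cerebellum genes, of which En2 (0.435) and Pax2 (0.345) had one in replicate 1 alone. Of the markers of other cortical cells, 3 of 5 astrocyte, 3 of 6 oligodendrocyte lineage, 1 of 3 microglia and 0 of 3 endothelium genes had one in both, so a count of 0 does not mean that a cell type is missing. Among all protein-coding genes 61.5% had one in both, and only the excitatory neuron list lay above that share. In tissue, fewer cells of a type with an open site and a less open site in each cell cannot be told apart.

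All 4 subunit genes carried a promoter peak in each library, where 61.5% of all protein-coding genes did. On the shorter peak list of the authors all 4 again did, where 55.6% of protein-coding genes did. A share of 4 in 4 genes cannot be set apart from that background. The promoter value of a gene is that of its strongest promoter peak, and its median over the 13489 protein-coding genes with such a peak in each library was 2.34. Averaged over the libraries, 3 of the 4 subunit genes lay below it, and Gria2 above it.

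Gria2 had the highest promoter value of the 4, with 2.21 in replicate 1 and 3.71 in replicate 2 (2.96 ± 1.05, SD, n = 2). The libraries differed more here than at the other subunit promoters, with a log2 ratio of replicate 1 to replicate 2 of -0.74. Of all regions called in both libraries, 7.13% were at least as far apart, in either direction. Over all these regions the median log2 ratio was -0.142, so a small part of the gap was shared by the libraries as a whole. The mean of Gria2 ranked at the 63.2 percentile of genes, but its rank was 49.1 in replicate 1 and 72.4 in replicate 2. Only replicate 2 thus placed Gria2 clearly in the upper part. The counting intervals were 2.00 to 2.45 and 3.43 to 4.00 and did not overlap. The 2 peaks also covered different spans, chr3:80802801-80803060 in replicate 1 and chr3:80802681-80802920 in replicate 2.

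Gria4 came next, with 1.51 in replicate 1 and 1.60 in replicate 2 (1.56 ± 0.0597), at the 32.1 percentile. It was the only subunit gene with more than 1 promoter region called in both libraries. The stronger one, chr9:4796041-4796340, covered the 5′ end and exon 1 of the transcript Gria4-201. The other, chr9:4795521-4795840, lay in intron 1 next to a second annotated TSS, and reached 1.14 in replicate 1 and 1.48 in replicate 2.

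Gria1 had promoter values of 1.15 and 1.11 (1.13 ± 0.0238), at the 20.99 percentile. That peak sat on the TSS of Gria1-201 at position 57011810, its centre 1 bp from it in replicate 1 and 29 bp in replicate 2. Weaker promoter peaks stood in 1 library each, at 0.599 and 0.554 in replicate 1 and at 0.605 in replicate 2.

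Gria3 had the lowest promoter values, 0.768 in replicate 1 and 0.822 in replicate 2 (0.795 ± 0.0380), at the 11.7 percentile. Its strongest peak did not cover the annotated 5′ end. Its centre lay 333 bp upstream in replicate 1 and 433 bp upstream in replicate 2. The counting interval of replicate 2, 0.693 to 0.968, overlapped slightly with that of Gria1 in the same library, 0.963 to 1.28. In replicate 1 the intervals were 0.645 to 0.909 for Gria3 and 0.995 to 1.32 for Gria1, and were apart.

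The order Gria2, Gria4, Gria1, Gria3 held in each library, and the ranges of the 2 library values of neighbours did not overlap, although the counting intervals of Gria3 and Gria1 did in replicate 2. With 1 group of 2 libraries there is no contrast to test, and the order is a description. The X chromosome as a whole was lower, which bears on the place of Gria3. A promoter peak in both libraries was found for 45.1% of protein-coding genes on the X, where the median promoter value was 1.30 over 428 genes, against 2.38 over 13061 autosomal genes. Gria3 stood at the 29.4 percentile among those X genes and at the 11.1 percentile of the autosomal genes. The part of X inactivation in its value was not tested.

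**Figure D1:**
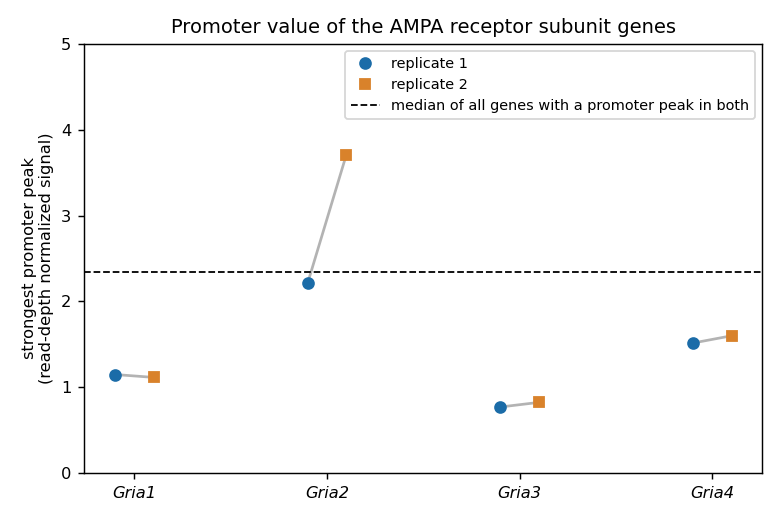
Value of the strongest promoter peak of each subunit gene (vertical axis, read-depth normalized signal) in replicate 1 (circles) and replicate 2 (squares), with the median promoter value of all genes, 2.34, as a dashed line. Gria1, Gria3 and Gria4 lie below the line in both libraries, and Gria2 has 2.21 in replicate 1 and 3.71 in replicate 2.

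In the 1 kb centred on the 5′ end of the gene, CpG dinucleotides numbered 47 at Gria2, 40 at Gria4, 26 at Gria3 and 15 at Gria1. The gene with the highest promoter value thus had the most, while Gria1 and Gria3 stood in the opposite order in the 2 measures. Among all protein-coding genes the counts stood at the 54.6 percentile for Gria2, 49.0 for Gria4, 40.0 for Gria3 and 28.7 for Gria1. At Gria1 and Gria3 the strongest promoter peak did not cover the 5′ end on which this window is centred.

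Open chromatin was spread differently along the 4 loci. Together they held 67 regions. Both libraries called 28 of these, replicate 1 alone 24 and replicate 2 alone 15. Over the whole genome, both called 58659 of 109538 regions. Gria1 was rich in regions and Gria3 was nearly bare. Each gene was set beside the protein-coding genes whose length was within a factor of 1.5 of its own.

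Gria1 (ENSMUSG00000020524.16, chr11:57011387-57330244, plus strand, 319 kb, 16 exons) had 34 peaks in replicate 1 and 30 in replicate 2. They formed 44 regions, 19 of them shared by both libraries, against a median of 7 over 665 genes of similar length. Of those genes 96.4% had fewer.

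Gria2 (ENSMUSG00000033981.14, chr3:80681450-80802835, minus strand, 121 kb, 16 exons) had 6 and 4 peaks and 3 shared regions, against a median of 4 over 2014 genes of similar length. All 3 lay within a few kb of the 5′ end, as did 2 further regions called in replicate 1 alone at 0.441 and 0.446. They were the promoter, the region chr3:80800921-80801400 with 1.41 in replicate 1 and 1.32 in replicate 2, and chr3:80800261-80800880 with 0.667 and 0.942. The remaining gene body held 1 peak, in intron 2, called in replicate 2 alone at 0.548.

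Gria3 (ENSMUSG00000001986.16, chrX:41400854-41678601, plus strand, 278 kb, 16 exons) had 6 and 3 peaks, and its promoter was the single region called in both libraries. Over 780 genes of similar length the median was 7 shared regions, 0.769% had none and 5% had at most 1. These genes came from all chromosomes, and region counts were not compared among X genes alone. Near its annotated start sites, 3 more regions stood in 1 library each, at 0.412 and 0.492 in replicate 1 and at 0.542 in replicate 2. Farther into its introns there were 3 regions, each called in 1 library, with values of 0.362 and 0.220 in replicate 1 and 0.354 in replicate 2.

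Gria4 (ENSMUSG00000025892.16, chr9:4417896-4796234, minus strand, 378 kb, 17 exons) had 9 and 6 peaks and 5 shared regions, against a median of 8 over 554 genes of similar length. Beside the 2 at the promoter, 3 were intronic. The strongest of these, chr9:4639241-4639557 in intron 4 of Gria4-201, had 0.520 in replicate 1 and 0.994 in replicate 2. The others, chr9:4573644-4573920 in intron 4 and chr9:4443000-4443164 in intron 14, had 0.407 and 0.333 in replicate 1 and 0.520 and 0.405 in replicate 2.

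The authors' table lists positions whose cut rate has a false discovery rate of at most 0.05. Of the 39 regions called in 1 library, 4 held such a position in the other library, 2 at Gria2 and 2 at Gria4, and none of the 25 at Gria1 or of the 6 at Gria3 did. The table does not list weaker cutting, so this does not show that cuts were absent there. The same share over all regions of the genome called in 1 library was not computed. These counts are therefore not read as a trait of the 4 genes or as a difference between them.

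**Figure D2:**
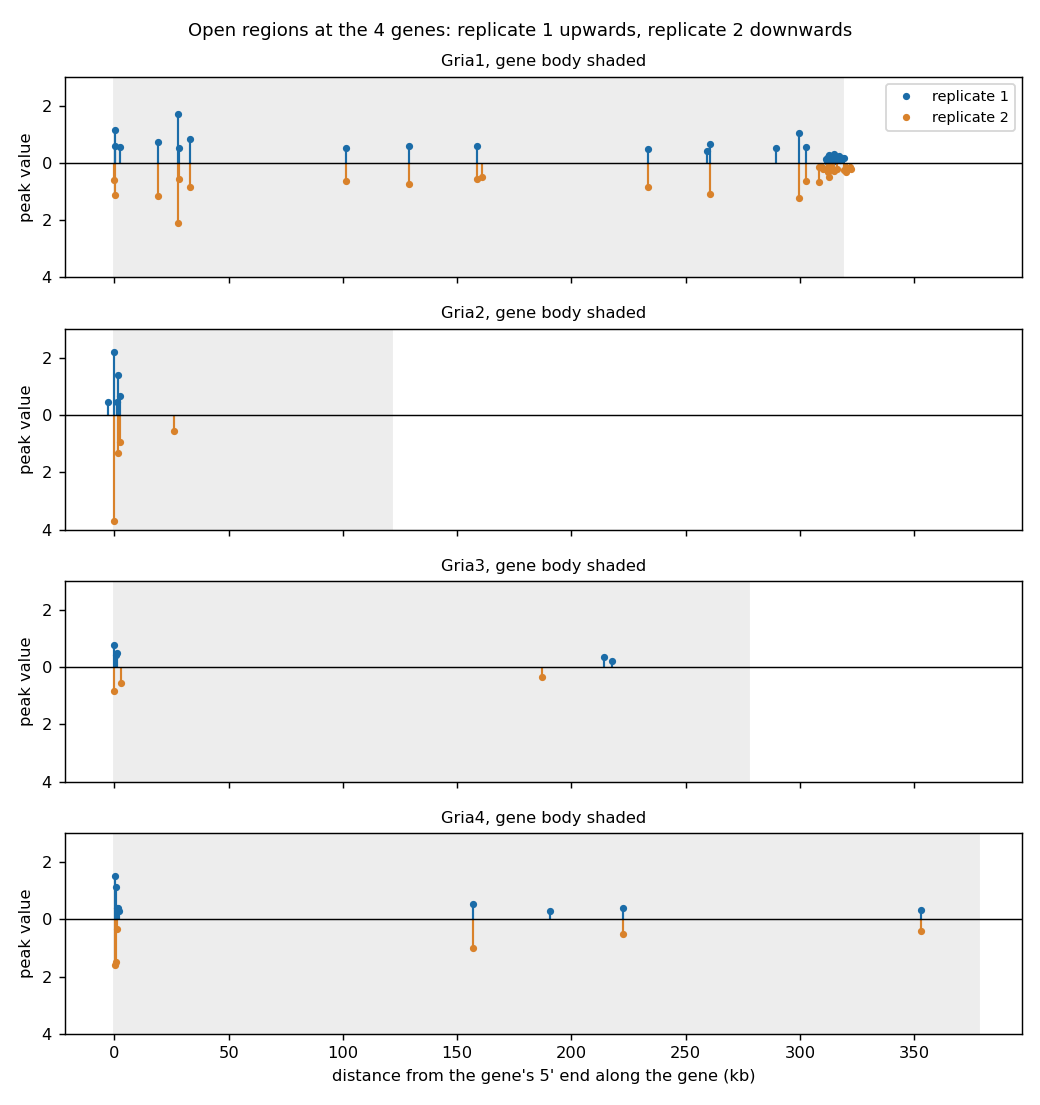
Peak value (vertical axis) of each open region against its distance from the annotated 5′ end along the gene (horizontal axis, kb), with replicate 1 drawn upwards, replicate 2 downwards and the gene body shaded. Gria1 has regions along its whole length and a dense run of weak ones at its 3′ end, while those of Gria2 gather at its 5′ end and Gria3 has 1 region called in both libraries.

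At Gria1 the promoter was not the most open site. The region chr11:57038881-57039120, 27.6 kb into the gene in intron 2, had 1.70 in replicate 1 and 2.11 in replicate 2, above the promoter values of 1.15 and 1.11. Intron 2 held 7 shared regions, with other values such as 0.723 and 1.14 at chr11:57030564-57030742 and 0.831 and 0.834 at chr11:57044221-57044440. Toward the 3′ end, chr11:57310861-57311080 in intron 14 reached 1.04 and 1.22, close to the promoter. Intron 11 held chr11:57271661-57272137 with 0.661 and 1.09.

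The last part of Gria1 carried a dense run of weak regions. The stretch from chr11:57319481 to 57333620, 14.1 kb long, begins in intron 15 and ends 3376 bp past the annotated end. In it, 26 regions, merged over the libraries, followed each other with gaps under 2 kb. Of these, 16 lay in intron 15, 5 in the last exon and 5 downstream of the gene, and 7 were called in both libraries. The run is continuous only over the libraries together. Its regions before chr11:57322579 and after chr11:57330888 were called in replicate 2 alone. Those from chr11:57328361 to 57329880 were called in replicate 1 alone, which left replicate 2 a gap of more than 2 kb there. Values in the run were low, from 0.0622 to 0.299 in replicate 1 (median 0.170) and from 0.126 to 0.662 in replicate 2 (median 0.211). The other 18 regions of Gria1, 12 of them shared, had medians of 0.596 in replicate 1 and 0.777 in replicate 2, and none was under 0.3.

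Weak as they were, the peaks of the run had small false discovery rates of the cut rate. The smallest rate in a region had a median of 1.61e-07 over the run in replicate 1, against 0.00328 over the other Gria1 regions. In replicate 2 the medians were 0.000148 in the run and 0.000259 elsewhere in the gene. The most extreme case, chr11:57319481-57319680, had a value of 0.662 and a false discovery rate of 2.4e-19 in replicate 2, and no listed position in replicate 1. By value alone the run was not separate from the other regions of the 4 genes. In replicate 1, 4 of its 17 values were at or above the lowest other value, 0.220, and in replicate 2, 2 of 16 were at or above 0.348. Set beside the false discovery rate, values in the run were lower. Each other region whose rate was at least as small as that of a region of the run had the higher value, in 194 of 194 such pairs in replicate 1 and 216 of 216 in replicate 2. These pairs share regions and are a description. Weak peaks elsewhere in the genome were not compared in this way, so the run is not shown to differ from them.

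**Figure D3:**
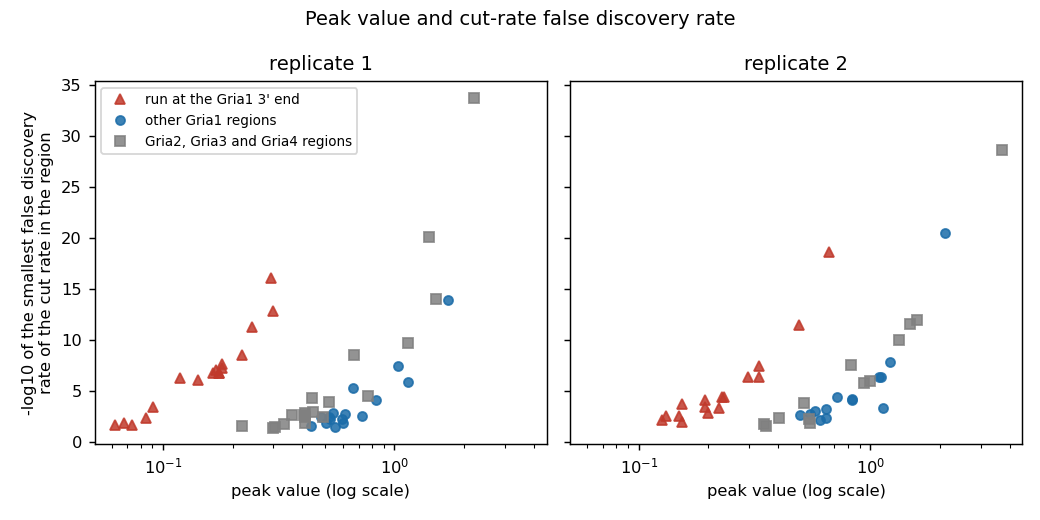
Smallest false discovery rate of the cut rate in each region called in that library (vertical axis, -log10) against its peak value (horizontal axis, log scale), for replicate 1 (left) and replicate 2 (right). At a like height, the run at the 3′ end of Gria1 (triangles) lies to the left of its other regions (circles) and of the Gria2, Gria3 and Gria4 regions (squares), although the values themselves overlap.

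Peaks under 0.3 made up 9.88% of all peaks in replicate 1 and 10.02% in replicate 2. On a fixed grid of 10 kb windows, the fullest one of the run held 17 such peaks in replicate 1, a number reached by 7 windows of the genome, that one included. In replicate 2 it held 7, reached by 332 windows. None of the 67 regions at the 4 genes had another copy in the genome at 90% identity over 80% of its length, and 15.5% of the run was repeat-masked. What gives the run its values was not tested.

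The shared region count of Gria1 leaned on this run. With the weakest 10% of each library's peaks left out everywhere, an alternative chosen after the values were seen, Gria1 kept 12 shared regions, and 79.4% of genes of similar length had fewer. Gria3 still had 1, and 6.15% of its genes of similar length had at most 1. Gria2 had 3 and Gria4 had 5, as before.

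**Figure D4:**
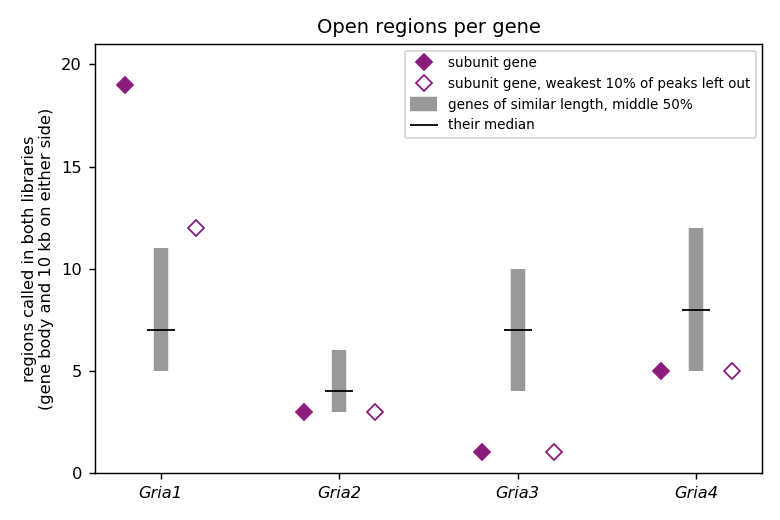
Regions called in both libraries at each subunit gene (filled diamonds) and after leaving out the weakest 10% of peaks (open diamonds), beside the median (line) and middle 50% (grey) of protein-coding genes of similar length with all peaks. Gria1 has 19 and then 12 regions beside a median of 7, and Gria3 has 1 beside a median of 7.

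Footprints numbered 100 in replicate 1 and 73 in replicate 2 over the 4 genes, 7 to 36 bp long. Of these, 91 and 62 lay in a peak of their own library, and 28 of each set overlapped a footprint of the other library. The overlap between libraries was thus partial, and a footprint seen in 1 library is given as such. The same shares over all footprints of the libraries were not computed, so these counts are not read as a trait of the 4 genes. Gria1 had 48 and 38 footprints, Gria2 19 and 13, Gria3 13 and 6, and Gria4 20 and 16. The run at the 3′ end of Gria1 held 13 of its 48 in replicate 1 and 9 of its 38 in replicate 2. Genes of similar length had medians of footprints per library of 23.5 for Gria1, 14.5 for Gria2, 21.5 for Gria3 and 25 for Gria4. At promoters, Gria4 had the most, 13 in replicate 1 and 9 in replicate 2, followed by Gria3 with 10 and 6.

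**Figure D5:**
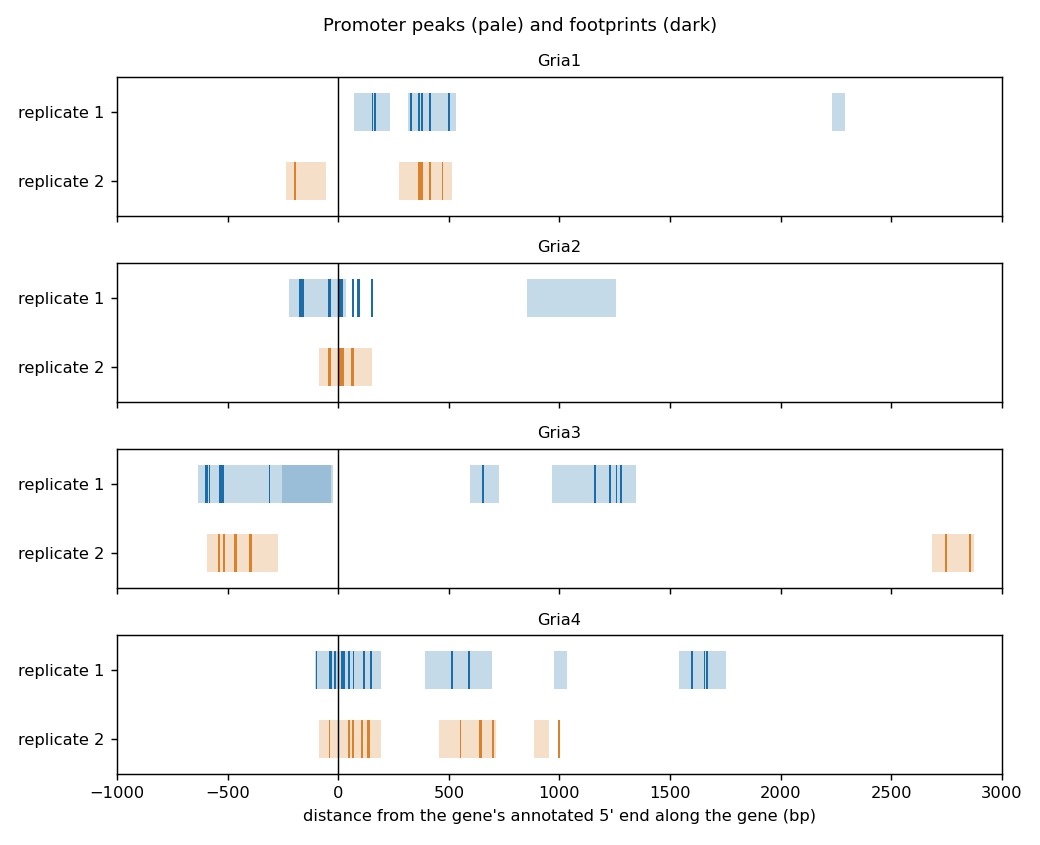
Promoter peaks (pale bars) and footprints (dark bars) of each subunit gene against the distance from its annotated 5′ end along the gene (horizontal axis, bp), in replicate 1 and replicate 2. The strongest Gria2 and Gria4 peaks lie over the 5′ end, the strongest Gria1 peak lies downstream of it, and the strongest Gria3 peak is centred 333 bp upstream in replicate 1 and 433 bp upstream in replicate 2.

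The footprints were searched for 12 motifs on both strands, with 5 bp added on either side, and the motifs were spelled after footprint sequences had been seen. Background is the share of 32851 RefSeq promoters of 300 bases, and of windows of 400 bp around the centre of each region called in both libraries, that hold the same letters. Both are longer than a footprint, so the share of all footprints is given where it matters. A match names letters, not a bound protein. No footprint of the 4 genes matched the motifs of CRE (TGAC followed by GTCA), MEF2 (CTA, any 4 bases, TAG), EGR (GCGTG followed by GGCG) or NeuroD (CAGATGG). Each of these matched between 0.126% and 1.40% of all footprints of a library, so a count of 0 among 100 and 73 footprints does not stand out. The 2 NFI-like motifs can overlap each other.

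The Gria2 promoter held an RE1-like match (AGCACC, any 2 bases, GGACAG) in a footprint of 21 bp at chr3:80802991-80803011, seen in replicate 1 alone. RE1 is the element bound by the repressor REST, which keeps neuronal genes silent in other cells, and in the rat the promoter of this gene is known to hold one. These letters are rare, found in 17 of the 32851 promoters (0.0517%) and in 0.107% of the windows. Of all footprints, 0.0121% in replicate 1 and 0.00421% in replicate 2 held them. The peak of replicate 1, chr3:80802801-80803060, covered the match. The peak of replicate 2, chr3:80802681-80802920, ended before it, although all 380 bp of the merged region had a false discovery rate of at most 0.05 in both libraries.

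At the first bases of Gria2, a footprint in both libraries, 17 bp in replicate 1 and 21 bp in replicate 2, held the NRF1-like letters GCGC, any base and TGCGC at chr3:80802821-80802830. NRF1 is an activator of many housekeeping and neuronal promoters. The letters occurred in 4.60% of promoters, and in 0.876% of footprints in replicate 1 and 0.971% in replicate 2. A further footprint upstream, 14 bp in replicate 1 and 13 bp in replicate 2, was also shared and matched none of the 12 motifs. In the intronic stretch, footprints of both libraries, with the added bases, held TTGG, any 6 bases and GCCAA, a spaced NFI-like motif found in 0.204% of promoters and 0.459% of windows. There the footprint was 22 bp in replicate 1 and 11 bp in replicate 2, where it fell outside the library's own peak. This spaced motif matched 0.0701% of all footprints in replicate 1 and 0.0721% in replicate 2.

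The longest footprints were at Gria1. In chr11:57310861-57311080 the footprint was 31 bp in replicate 1 and 36 bp in replicate 2 and held the CTCF-like letters CCA, any 2 bases and AGGTGGC, which occur in 3.02% of windows and 0.210% of promoters. CTCF is the zinc finger protein that anchors chromatin loops. The strongest intronic region had a footprint of 28 bp in replicate 1 and 32 bp in replicate 2 with the shorter NFI-like letters TGGC, any 5 bases and GCC, found in 11.7% of windows. NFI proteins are factors of neurons and astrocytes. The same letters lay in a footprint of 20 bp of replicate 2 at chr11:57112600-57112619. The region chr11:57313821-57314162, with values of 0.542 and 0.645, held the RFX-like letters (GTTGC, any base, ATGG, any 2 bases, AC) in a footprint of 18 bp of replicate 1, found in 0.738% of windows. The CTCF-like letters matched 0.815% of all footprints in replicate 1 and 0.821% in replicate 2. For the shorter NFI-like letters the shares were 1.57% and 1.66%, and for the RFX-like letters 0.119% and 0.153%. The RFX-like match and the one at chr11:57112600-57112619 were each seen in 1 library, and these shares are descriptions.

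At Gria4, the SP-like letters GGGCGG lay in a footprint of replicate 1 in the intron 1 promoter region, and occur in 35.7% of promoters. The AP1-like letters TGANTCA lay at a footprint of replicate 2 in the intron 4 region of 0.520 and 0.994, and occur in 14.5% of windows. Of all footprints, the SP-like letters matched 7.69% in replicate 1 and the AP1-like letters 0.750% in replicate 2. Each match was seen in 1 library in a search of 12 motifs, so neither is read as setting Gria4 apart. No footprint of Gria3 matched any of the 12 motifs, but with 13 and 6 footprints that count says little, since the most common one, the SP-like motif, matched 7.69% of all footprints in replicate 1 and 8.19% in replicate 2. In this gene 2 of the 13 footprints in replicate 1 overlapped one of replicate 2.

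The proteins that assemble, move and anchor AMPA receptors were described as a list of 30 partner genes. Of these, 26 (86.7%) had a promoter peak in both libraries, and 61.5% of all protein-coding genes did. On the shorter peak list 19 of the 30 did, where 55.6% of protein-coding genes did, so the gap to all genes was small there. Their median promoter value was 1.51, and 22 of the 26 lay below the 2.34 of all genes. Pick1, which binds the tails of the subunits and acts in their removal from the surface, had the highest value, 5.31 in replicate 1 and 6.13 in replicate 2 (5.72 ± 0.585). Vps35, the core of the retromer that recycles receptors, followed with 3.41 and 4.08. Shisa7, a transmembrane auxiliary protein, had 2.54 and 3.23, and Dlg4, the main scaffold of the postsynaptic density, 1.85 and 2.98. Cacng4, an auxiliary subunit, had a promoter peak in replicate 1 alone, at 0.650. No promoter peak was called in either library for Cacng5, another member of that family, for Shisa8 or for Nptxr, the neuronal pentraxin receptor. Adarb1, which encodes the enzyme that edits the Gria2 transcript, was picked out after its values were seen and had 1.93 and 2.32.

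Among the other ionotropic glutamate receptors, 5 of 7 NMDA and 5 of 5 kainate subunit genes carried a promoter peak in each library. Of all protein-coding genes 61.5% did, and lists this small cannot be set apart from that share. Median promoter values were 1.34 for the AMPA, 1.55 for the NMDA and 1.18 for the kainate subunit genes. Shared regions per 100 kb of locus had a median of 1.69 for the AMPA genes, 4.51 for the NMDA genes, 1.21 for the kainate genes and 5.39 for the partner genes. These lists hold few genes of very different length, and no difference between them was tested.

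The genes most like each subunit gene were found by distance over 3 scaled measures, the log2 of gene length, of mean promoter value and of 1 plus the number of shared regions, over the same 13489 genes. Gria1 was nearest to Itpr2, with promoter values of 1.15 and 1.02 and 18 shared regions, and then to Gabbr2, with 1.53 and 1.12 and also 18. Its own count in this measure was 19 and included the shared regions of the run at its 3′ end. Gria2 was nearest to Huwe1, with 2.28 and 3.71 and 3 shared regions, which has a like gap between libraries, and to Eepd1, with 2.73 and 3.53 and 3. Gria4 was nearest to Arhgap24 and Syne2, both with 5 shared regions and mean values of 1.44 and 1.48. Gria3 had no close neighbour. Its nearest genes, Cntnap3 and Plcxd3, were at distances of 0.393 and 0.472 SD units and had 1 shared region each, where the nearest gene to each of the other subunit genes was at 0.194 or less.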

How the data were processed

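DNase-seq was made on nuclei from tissue, per the labels' protocols. Peaks, footprints and cut-rate false discovery rates were each derived on mm10 from a single library's reads, per the deposited text descriptions. The aligner and callers, and how deeply the libraries were sequenced, are not stated in these sources. The deposited peak value is the authors' read-depth normalized signal, on a scale not stated, in 2 lists per library. The longer list was used. Deposited footprint lists carry the constant 0.01, read here as a p-value threshold. The deposited cut-rate table gives a false discovery rate (q-value) and lists positions at or below 0.05.

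Genes came from GENCODE vM21, sequences from GRCm38.p6 and RefSeq promoters of the same build (2 of the 4 genes matched). The overlap minimum was 1 bp. Percentiles are descriptions. Intervals are exact Poisson 95% intervals. Copies were sought with blastn 2.17.0. Other steps used Python 3.11.15 with numpy 2.4.6 and scipy 1.17.1, and interval code was tested on simulated data. Named partner genes were those without a promoter peak in both libraries and the 4 with the highest values. For each subunit gene, the 2 nearest genes were named. The members, lists and rules were chosen with earlier results of these data known.

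Alternatives were the shorter list, other promoter windows and flanks, a 50% overlap, the stronger 50% of peaks, other footprint filters and 1 library alone.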

Additional observations from a re-analysis of the deposited data

How the results depend on the processing

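All 4 subunit genes kept a promoter peak in both libraries under each alternative run, and the partner gene count, 26, was 19 with the shorter peak list, where 55.6% of all genes had such a peak, and 23 to 27 under the others. Region counts did depend on the settings. With the shorter peak list, regions in both libraries numbered 9 at Gria1 and 3 at Gria4. With the stronger 50% of peaks they numbered 6 at Gria1 and 2 at Gria4, and at or above the 10th percentile of value, added after seeing the data, 12 at Gria1. An overlap of 50% of both peaks left 3 at Gria4. Flanks of 50 kb gave 5 at Gria2, and the gene body alone left 0 at Gria3, since its promoter region lies upstream. Counted in 1 library alone, where a region needs no second call, there were 30 to 34 at Gria1, 4 to 6 at Gria2, 3 to 6 at Gria3 and 6 to 9 at Gria4. Mean footprints per library were 43 at Gria1, 16 at Gria2, 9.5 at Gria3 and 18 at Gria4. Those of at least 10 bp numbered 14 at Gria1, 10 at Gria2, 3.5 at Gria3 and 6.5 at Gria4. Inside a peak of the same library Gria2 had 10.5, in the gene body alone Gria3 had 5, and in 1 library alone Gria3 had 6 to 13. The cause of these changes beyond the settings' own construction was not tested. No paired analysis was possible because there is 1 group and nothing to pair it with. The depth is unknown beyond the value steps, and alleles were not analysed here.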
